A study of Homo sapiens with 12 samples.

Results

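Open chromatin was compared at 2345 strong promoter regions of 2 human oesophageal squamous carcinoma cell lines, KYSE150 and KYSE510. ATAC-seq peaks (stretches of DNA that a transposase can enter) with a height of at least 3 were merged across 12 libraries on chromosomes 1 to 22 wherever they overlapped by 1 bp. Of 283481 merged regions, the 2345 regions (0.827%) were selected on peak height: each had a peak of height 10 or more in every library and lay within 1 kb of an end of a protein-coding gene. Height is the deposited pileup, the number of overlapping fragments at the tallest position of a peak. Because heights chose the regions, the heights themselves are a description. For both lines, cells silenced for HCP5, a long non-coding RNA gene, and control cells gave 3 libraries each. The cells grew in RPMI-1640 with 10% FBS. How HCP5 was silenced and which control was used are not given in the sources used here.

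A promoter is the stretch of DNA around the start of a gene at which RNA polymerase II and its general factors assemble. At many human promoters, above all those within CpG islands, nucleosomes are displaced just upstream of the start, and the bare DNA is open to transposase in most cell types. The proteins that bind there include SP and KLF factors at GC boxes, the trimeric factor NF-Y at CCAAT boxes and ETS factors, and such promoters mostly serve genes that every growing cell needs.

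Sequences of member promoters are shown first, because the base sequence was not used in choosing the regions. The 12 regions of highest mean height included 10 whose start site is in the RefSeq promoter table (GRCh38.p14). For 8 of those 10 and for UTP3, the gene that the title of the series places between HCP5 and MYC, the 150 bases before the start are printed 5′ to 3′ on the gene's own strand. Capitals mark matches to any of the 13 motifs searched, on either strand. The first 6 sequences are shown because they hold CCAAT (or its reverse complement ATTGG) in these 150 bases. The last 3 are shown because they do not. GSK3B and RIMOC1, the rest of the 10, are not printed and also lack it there, so 6 of the 10 hold it in these bases.
PCF11 (chr11:83156981-83157130, plus strand): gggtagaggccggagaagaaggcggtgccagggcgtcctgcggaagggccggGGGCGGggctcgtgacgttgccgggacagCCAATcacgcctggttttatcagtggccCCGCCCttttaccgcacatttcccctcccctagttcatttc
G3BP1 (chr5:151771804-151771953, plus strand): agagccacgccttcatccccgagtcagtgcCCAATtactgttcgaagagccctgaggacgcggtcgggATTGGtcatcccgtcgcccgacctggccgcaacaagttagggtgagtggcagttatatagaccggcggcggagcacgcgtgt
ARRDC4 (chr15:97960553-97960702, plus strand): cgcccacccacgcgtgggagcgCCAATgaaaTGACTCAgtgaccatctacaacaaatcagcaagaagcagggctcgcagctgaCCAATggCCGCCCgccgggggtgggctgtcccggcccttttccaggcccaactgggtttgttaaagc
PWWP2A (chr5:160119451-160119600, minus strand): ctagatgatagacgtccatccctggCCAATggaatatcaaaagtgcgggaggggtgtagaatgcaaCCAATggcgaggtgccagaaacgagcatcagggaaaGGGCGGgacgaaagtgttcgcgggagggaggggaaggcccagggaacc
SPTLC2 (chr14:77616638-77616787, minus strand): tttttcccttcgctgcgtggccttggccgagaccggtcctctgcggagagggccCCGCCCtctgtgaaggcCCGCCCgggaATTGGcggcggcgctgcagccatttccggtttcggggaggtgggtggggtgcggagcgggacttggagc
CNOT3 (chr19:54137612-54137761, plus strand): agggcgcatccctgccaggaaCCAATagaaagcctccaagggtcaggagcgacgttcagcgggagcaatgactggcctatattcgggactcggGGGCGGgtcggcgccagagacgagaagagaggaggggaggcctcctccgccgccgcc
PPP2R5A (chr1:212285260-212285409, plus strand): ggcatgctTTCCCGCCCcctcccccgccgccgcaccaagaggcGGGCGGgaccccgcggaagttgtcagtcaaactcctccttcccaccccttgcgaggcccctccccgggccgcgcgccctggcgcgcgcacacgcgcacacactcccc
PARP2 (chr14:20343485-20343634, plus strand): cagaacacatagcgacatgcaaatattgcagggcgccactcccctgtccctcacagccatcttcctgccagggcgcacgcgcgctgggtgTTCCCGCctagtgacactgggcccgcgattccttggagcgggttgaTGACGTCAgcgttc
UTP3 (chr4:70688382-70688531, plus strand): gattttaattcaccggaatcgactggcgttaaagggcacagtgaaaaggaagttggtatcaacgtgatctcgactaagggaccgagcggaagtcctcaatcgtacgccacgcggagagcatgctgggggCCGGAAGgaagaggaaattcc

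Positions are those of the first base of a match on the gene's strand, with -1 the last base before the start. PCF11, a factor of transcript cleavage and polymerase release, has CCAAT at -69 between GC boxes (GGGCGG or CCGCCC) at -98 and -41. G3BP1, the core protein of stress granules, has CCAAT on opposite strands at -120 and -82. ARRDC4, an arrestin-family regulator of glucose uptake, has CCAAT at -128 and -67, an AP-1 match (TGANTCA) at -119 and a GC box at -60. PWWP2A, a reader of the histone variant H2A.Z, also has a pair of CCAAT boxes, at -125 and -84. SPTLC2, a subunit of the enzyme that starts sphingolipid synthesis, has a reversed CCAAT at -69 beside GC boxes at -96 and -79. CNOT3, a subunit of the main mRNA deadenylase complex, has CCAAT at -129 and a GC box at -57. PPP2R5A, a regulatory subunit of protein phosphatase 2A, shows GC boxes at -139 and -107, the first overlapping an E2F match (TTCCCGC). PARP2, a DNA repair enzyme, shows a CRE (TGACGTCA) at -14 and an E2F match at -60. The only match in the UTP3 window is an ETS site (CCGGAAG) at -21. None of the 9 windows shows the letters TATAAA. In the longer window used for counts, CCAAT was present at 9 of the 10 tallest members with a sequence, and in 6 of them at least 2 times.

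Of the 13 motifs, CCAAT differed most, in percentage points, between promoters of strong and of weaker regions. Over the 300-base window from 250 bases before the start to 50 after it, CCAAT occurred in 1168 of 2115 member promoters (55.2%). It occurred in 35.3% of 3570 promoters at weaker regions, those with a peak in every library and near a gene end but under height 10 in at least 1 library. The share was 35.7% of 3221 promoters with no merged region within 1 kb and 36.8% of all 13224 promoters on these chromosomes. At least 2 copies were present in 29.4% of member promoters, against 11.5% at weaker regions and 12.7% of all promoters. The difference was present at each base composition. In the GC-poorest of 3 equal classes of the open promoters, divided at 61.7 and 69.0% GC, CCAAT occurred in 63.7% of member and 44.4% of weaker promoters. In the middle class the shares were 55.8 and 34.7%, and in the GC-richest class 45.7 and 27.04%. These shares are descriptions of letters in a fixed window, without a test, and do not show that NF-Y was bound.

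The share of promoters with CCAAT climbed with peak height. The promoters of all regions with a peak in every library were ranked by mean height and cut into 10 equal classes. CCAAT occurred in 25.8% of the lowest class (mean heights 3.77 to 6.98) and in 66.4% of the highest class (mean heights 31.2 to 110), and each class held more than the one below it. The median GC content stayed between 64.2 and 66.7% over the 10 classes. GC boxes went from 68.2% in the lowest to 79.6% in the highest class, while ETS sites went from 26.0 to 19.7%. Within the members, promoters with CCAAT had a median mean height of 25.7 and those without it 22.6.

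**Figure D1:**
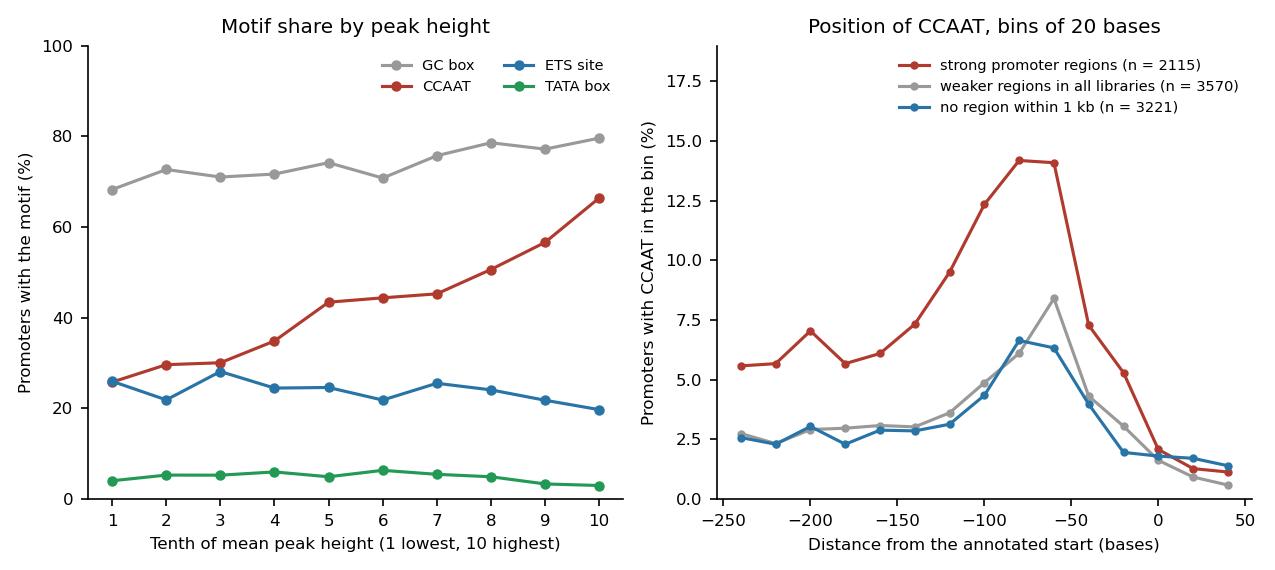
Left, share of promoters (%) with each of 4 motifs in 10 classes of mean peak height, over all regions with a peak in every library; CCAAT goes from 25.8 to 66.4% while ETS sites and TATA boxes stay below 30%. Right, share of promoters (%) with CCAAT in each 20-base bin by distance from the annotated start, where the line of the 2115 member promoters peaks at 14.2% and lies above the other 2 lines over most of the upstream part.

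CCAAT was most frequent at a similar distance from the start in member and other promoters. In member promoters its median position was -102 (quartiles -164 and -64). In member promoters the fullest bins were those from -90 to -71, with a CCAAT in 14.2% of promoters, and from -70 to -51, with 14.1%. The same bins held 6.11 and 8.40% at weaker regions, and 6.64 and 6.33% of promoters with no merged region within 1 kb. A CCAAT lying wholly between 120 and 41 bases before the start was present in 36.5% of member promoters and 19.02% at weaker regions. The share was 17.98% of promoters with no merged region and 20.2% of all promoters.

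The other motifs divided open promoters from closed ones more than strong from weak. GC boxes were present in 77.9% of member promoters, 71.6% at weaker regions and 32.8% of promoters with no merged region. ETS sites were present in 22.1, 24.8 and 3.73% of these sets. The YY1 match AAGATGGCG, which in members lay around the start itself (median position 13), was present in 5.15, 4.34 and 0.435%. TATAAA went the other way, with 4.44% of member promoters, 5.10% at weaker regions and 19.7% of promoters with no merged region. A ratio of observed to expected CpG above 0.6, a usual mark of CpG islands, was found in 89.5, 90.1 and 30.5%. The ZNF143 letters CTACAATTC were rare but, as with CCAAT, went with strong regions: 1.42% of member promoters, 0.560% at weaker regions and 0.469% of all promoters. The 30 member promoters that held them had a median mean height of 31.3, against 24.1 for the others. AP-1 and TEAD matches (TGANTCA and GGAATG), letters bound by factors active in squamous cancers, were no more frequent at members (4.21 and 10.3%) than among all promoters (5.70 and 11.6%). The remaining motifs were the NRF1 letters GCATGCGC (5.15% of member and 4.36% of all promoters), the CRE TGACGTCA (2.84 and 2.76%), the E-box CACGTG (10.3 and 8.85%), the ZBTB33 letters CTCGCGAGA (1.89 and 1.10%) and the E2F letters TTCCCGC (12.7 and 8.73%). Promoters at weaker regions held 7.23, 3.87, 11.09, 1.96 and 11.06% in the same order. Only the E2F letters were thus more frequent at members than at weaker regions.

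The word promoter fitted most of the regions but not all. With strands taken from the promoter table, 1951 regions (83.2%) lay within 1 kb of a gene's 5′ end. A further 68 (2.90%) lay near 3′ ends only, and for 326 (13.9%) the table gave no strand. The regions were 375 to 2103 bp wide (median 887) and covered 2.19 Mb in total. Among those at a 5′ end, the start lay inside the region in 92.8%. The centre of the peak, which stands in for its summit because the tables give none, lay at a median of -88.6 bp from the start, upstream being negative. It lay within 200 bp of the start in 68.3%. At weaker regions the median was -37.1 bp. Divergent gene pairs, whose 5′ ends lie on opposite strands within 1 kb of 1 region, made up 15.01% of the strong promoter regions (352) and 10.5% of the weaker ones. The region with the most genes, 23, was chr5:141513686-141515065 (GRCh38), where the protocadherin gamma genes share an end and DIAPH1 lies beside them. It was the only region with more than 3 genes.

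The regions were near 2895 of 19122 protein-coding genes (15.1%), whereas 7869 genes (41.2%) had a region with a peak of any height from 3 up in every library. Gene lists from the machinery of growing cells were compared with that background of 15.1%. These lists were also open more often at any height: 61.5% (RNA polymerase II) to 87.5% (CCT) of their genes had a peak in every library, against 41.2% of all genes. A higher share with a member therefore does not show that their open promoters were stronger than other open promoters. Of the 8 genes of the CCT chaperonin, which folds actin and tubulin, 5 had a member (62.5%). Among MCM and replication origin genes, which load and fire the replicative helicase, the count was 10 of 22 (45.5%), led by MCM3 with a mean height of 59.3. The MYC-MAX network of E-box factors had 6 of 13 (46.2%), the small subunit processome of ribosome assembly 12 of 39 (30.8%), and proteasome subunits 13 of 43 (30.2%). Translation initiation factors, a list that by its naming rule also takes in the EIF2AK kinases, had 16 of 53 (30.2%). Mediator had 8 of 29 (27.6%), RNA polymerase II 3 of 13 (23.1%) and splicing factors 18 of 79 (22.8%). Cytosolic ribosomal protein genes, among the most highly transcribed in any cell, had a peak in every library at 56 of 79 and a strong promoter region at 16 (20.3%). Over all genes these 2 counts were 7869 and 2895. For splicing factors they were 61 and 18, for mitochondrial ribosomal protein genes 51 and 12, for translation initiation factors 42 and 16, and for CCT 7 and 5. Mitochondrial ribosomal protein genes (12 of 77, 15.6%), complex I subunits (6 of 34, 17.6%) and ZNF genes (69 of 497, 13.9%) were close to the background. Olfactory receptor genes had 0 of 391, and the BCL2 family and caspases 2 of 23 (8.70%, at CASP9 and BMF). No list was tested against the background, and the members of several lists are few.

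Markers of the lines' own cell type had strong promoter regions about as often as ribosomal protein genes. Of 20 squamous epithelium markers, 4 had a member (20%, background 15.1%), among them JUP and TRIM29, of cell junctions and keratinocytes, and LAMB3, which encodes a chain of a basement membrane laminin. A peak of height 10 or more lay within 1 kb of either end of 5 to 13 of the 20 genes in a given library. For KRT14, TP63, PKP1 and COL17A1 this held in none, but starts inside a gene, away from its ends, are not covered by this count. The same count was 0 to 2 of 7 for fibroblast markers, 0 of 5 for endothelium, and 0 or 1 for the 6 blood and 3 liver markers. Summed over the squamous list, the highest peaks came to 146 to 206 per library in KYSE150 and 284 to 381 in KYSE510. Immediate-early genes, which respond to growth factors and stress, had 6 of 24 (25%). At JUN the heights in KYSE150 were 49, 36 and 42 in control and 49, 49 and 34 in silenced libraries, and in KYSE510 68, 56 and 64 in control and 57, 58 and 57 in silenced libraries. In each library JUN exceeded the median member.

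Depth is unknown, because the deposited tables give no read totals. Each library had 51492 to 61585 peaks of height 3 or more in KYSE150 and 101552 to 119939 in KYSE510. The strong promoter regions held 4.21 to 5.19% of these peaks in KYSE150 and 2.18 to 2.54% in KYSE510, with 11.96 to 13.7% and 7.76 to 9.44% of the summed height. In bulk cells, a site open in more cells and a site more open in each cell cannot be told apart.

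Median height over the members was 24, 22 and 23 in KYSE150 control libraries, 22, 20 and 17 in KYSE150 silenced libraries, 35, 26 and 26 in KYSE510 control libraries, and 28, 26 and 28 in KYSE510 silenced libraries. The KYSE510 medians all lay above the KYSE150 medians, and KYSE510 control 1 and KYSE150 HCP5-silenced 3 stood at the ends. The latter held the lowest height for 1095 members (46.7%), so the choice of regions leaned on it. Without that library the rule gave 2668 regions, and leaving out any other library gave 2358 to 2447. A minimum height of 8 gave 3216 regions and a minimum of 15 gave 1090. There were 342 members with a lowest height of exactly 10 and 390 regions near gene ends with a lowest height of 9. Just inside, SMAD2 ranged from 10 to 16 over the 12 libraries. Just outside, NPHP4/KCNAB2 had a height of 9 in KYSE150 HCP5-silenced 2 and 16 to 108 in the other libraries.

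**Figure D2:**
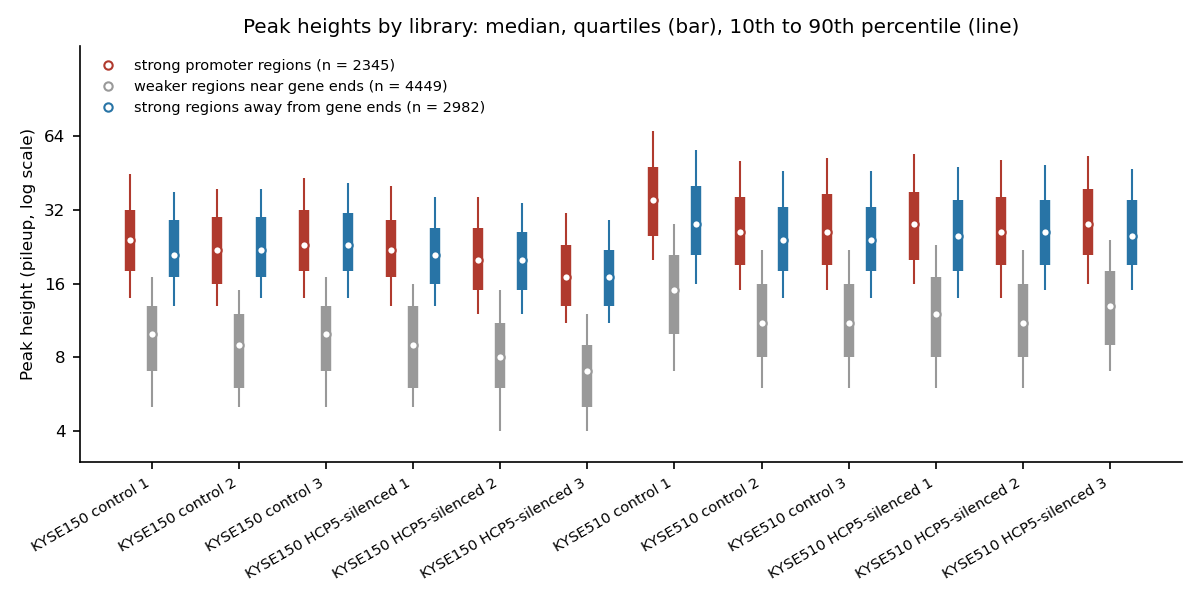
Peak height (pileup, log scale) by library for the 2345 strong promoter regions, 4449 weaker regions near gene ends and 2982 strong regions over 1 kb from gene ends; points are medians, bars quartiles and lines the 10th to 90th percentile over regions. The medians of the strong promoter regions are 17 to 24 in KYSE150 and 26 to 35 in KYSE510.

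The tallest members were strong in both lines but not at the same level. Coordinates of regions are those of the merged peaks (GRCh38). PCF11 (chr11:83156445-83157243) had heights of 110, 93 and 111 in KYSE150 control, 101, 91 and 75 in KYSE150 silenced, 144, 123 and 116 in KYSE510 control, and 112, 139 and 132 in KYSE510 silenced libraries. It had the highest mean (110) and, after each library was centred on its median, the second lowest spread of all members (SD 0.10 on the log2 scale). PPP2R5A (chr1:212284668-212285819) had 194, 138 and 171 in KYSE150 control, 168, 133 and 127 in KYSE150 silenced, 112, 73 and 82 in KYSE510 control, and 85, 57 and 65 in KYSE510 silenced libraries. Every KYSE150 library thus exceeded every KYSE510 library there. CNOT3 (chr19:54136910-54137840) showed the reverse, with 32 to 51 in the 6 KYSE150 libraries and 112 to 171 in the 6 KYSE510 libraries. Among the 12 tallest were also G3BP1, the pair KCTD9/CDCA2, ARRDC4, PWWP2A, SPTLC2, the kinase gene GSK3B, RIMOC1 and PARP2, with mean heights of 80.6 to 98.6.

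**Figure D3:**
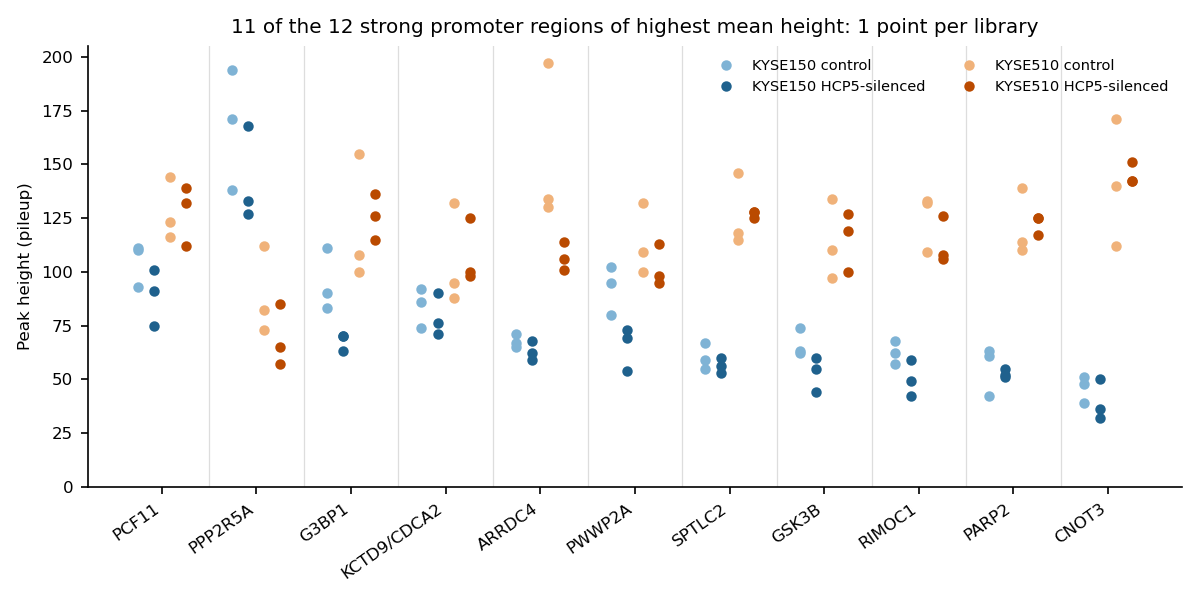
Peak height (pileup) at 11 of the 12 strong promoter regions of highest mean height, 1 point per library, coloured by line and treatment. Control and HCP5-silenced points of a line mostly intermingle, and the lines separate at PPP2R5A, higher in KYSE150, and at CNOT3 and several others, higher in KYSE510.

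The spread of heights between libraries was described in members and in other regions, with the limit that a minimum height in every library narrows it by selection. The SD of log2 height within a group, pooled over the 4 groups, had a median of 0.26 over members, 0.28 over strong regions more than 1 kb from gene ends, which met the same minimum, and 0.38 over all 20785 regions with a peak in every library. It fell with height, from a median of 0.30 in the lowest of 4 equal classes of members by height to 0.21 in the highest. Across members, centred log2 heights of 2 libraries of a group correlated with a median r of 0.825, those of control and silenced libraries of a line with 0.822, and those of different lines with 0.518. These correlations are across regions, which are not independent, and the libraries of a line share their genome.

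Silencing of HCP5 was compared with control in each line by a limma fit of centred log2 heights over all 20785 regions, with Benjamini-Hochberg adjustment over all of them. Labels do not say that libraries came from separate cultures, so p-values measure the spread between libraries, which may be technical. No strong promoter region passed an adjusted p of 0.05 in KYSE150 (limma). The minimum height in every library keeps out regions that are low in silenced libraries. The members' differences in both lines are therefore narrowed by selection. Over all regions, 0.00481% were called higher and 0% lower. At an unadjusted p under 0.05, 28 members (1.19%) were higher and 80 (3.41%) lower, against 2.7% and 3.96% of all regions. That split depended on the scaling: it was 58 higher and 35 lower with ranks of fold enrichment, 74 and 25 with log2 fold enrichment, and 58 and 61 with quantile normalisation. The members' median difference, silenced minus control, was -0.05 on the log2 scale, against -0.03 over all regions. It was 0.04 with log2 fold enrichment and 0.0062 with quantile normalisation. With ranks of fold enrichment it was 0.05, in normal scores of the ranks and not in log2 units. The median of log2 height differences also rested on 1 library: without KYSE150 control 1 it was -0.0047, with 49.3% of members positive in place of 41.5%. Among members, the smallest adjusted p in KYSE150 was at SESN3 (chr11:95231106-95231698), which encodes a stress-induced inhibitor of mTORC1. It had heights of 41, 31 and 30 in control and 21, 18 and 16 in silenced libraries. These did not overlap, yet the difference of -0.70 ± 0.18 (log2, SE) had an adjusted p of 0.323 in limma over the 12 libraries. SF1, a splicing factor, had 39, 39 and 43 in control and 25, 22 and 17 in silenced libraries (-0.75, limma adjusted p = 0.331). The member with the lowest p among those that were higher was SHMT1, an enzyme of folate metabolism, with 10, 11 and 19 in control and 21, 22 and 18 in silenced libraries (0.85, limma adjusted p = 0.474); its groups overlapped.

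In KYSE510 also, no strong promoter region passed in limma, where 0.0674% of all regions were called higher and 0% lower. In simulated data for this comparison 59.5% of changes of 1 log2 unit planted at members were called, so changes of that size can be missed. At an unadjusted p under 0.05, 15 members (0.640%) were higher and 115 (4.90%) lower, against 3.46% and 3.28% of all regions. The 115 became 53 with ranks of fold enrichment, 71 with log2 fold enrichment and 61 with quantile normalisation. The members leaned lower as a set: their median difference was -0.11 on the log2 scale and 28.2% of them were positive, against -0.05 and 43.7% over all regions. The median was -0.12 over weaker regions near gene ends and -0.04 over strong regions away from gene ends. The members' median kept its sign when any library was left out (-0.14 to -0.09). It was closer to 0, at -0.05, with both log2 fold enrichment and quantile normalisation, a shift by more than 1.5 times. With ranks of fold enrichment it was -0.06 in normal scores, a unit that cannot be set against log2. No p is given for this median, since the members were chosen with these data. ARRDC4 (chr15:97960143-97960887) had the smallest adjusted p among members. Its heights were 197, 130 and 134 in control and 106, 101 and 114 in silenced libraries, which did not overlap, a difference of -0.54 ± 0.14 (log2, SE) with an adjusted p of 0.167 in limma. In KYSE150, ARRDC4 had 67, 71 and 65 in control and 62, 68 and 59 in silenced libraries. PSME2/RNF31, a divergent pair encoding a proteasome activator subunit and a linear ubiquitin ligase subunit, had 78, 69 and 61 in control and 46, 45 and 42 in silenced libraries (-0.68, limma adjusted p = 0.224). XPR1, a phosphate exporter gene, had 72, 52 and 56 against 39, 35 and 44 (-0.64, limma adjusted p = 0.222). ADAM10, which encodes a membrane sheddase, led those that were higher, with 13, 12 and 17 against 34, 15 and 24 (0.70, limma adjusted p = 0.499), and its groups overlapped. Without HCP5-silenced 1 the difference at ADAM10 was 0.40.

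**Figure D4:**
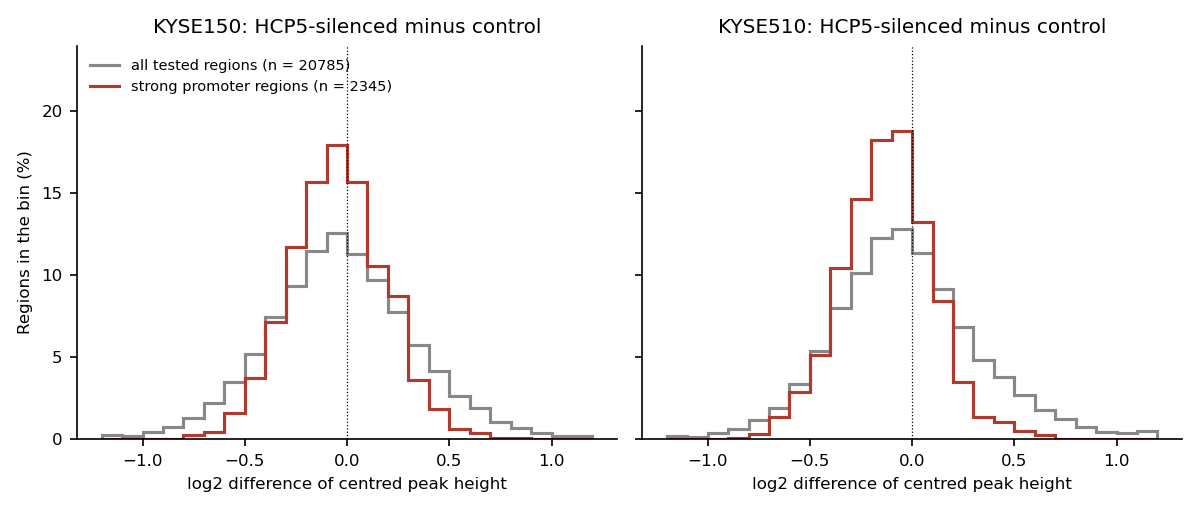
Distribution of the log2 difference in centred peak height, HCP5-silenced minus control, in KYSE150 (left) and KYSE510 (right), as the share of regions (%) per bin of 0.1, for the 2345 strong promoter regions and all 20785 tested regions; values beyond 1.2 are in the end bins. Both distributions of the members are narrower than those of all regions, with the limit that a minimum height in every library narrows them by selection. In KYSE510 28.2% of the members lie above 0.

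The effect of silencing was not called different between the lines at any member. In the test of the difference itself (limma), the smallest adjusted p among members was 0.697, and over all regions 0% were called higher and 0% lower. At an unadjusted p under 0.05, 18 members (0.768%) were higher and 64 (2.73%) lower, against 2.8% and 2.59% of all regions. The 2 silencing differences were more than 2-fold apart at 15 members (0.640%) and 908 of all regions (4.37%). No member differed by more than 2-fold in either silencing comparison alone, with the limit that the minimum height in every library narrows these differences by selection. Of strong regions away from gene ends, which met the same minimum, 0 in KYSE150 and 3 in KYSE510 did so, against 160 and 239 of all regions. At UTP3 the heights were 16, 17 and 14 in KYSE150 control, 10, 13 and 23 in KYSE150 silenced, 24, 12 and 18 in KYSE510 control, and 18, 24 and 25 in KYSE510 silenced libraries. Groups overlapped in both lines (0.07 ± 0.29 and 0.31 ± 0.29, log2 and SE). At MYC the silencing differences were 0.06 ± 0.19 and -0.02 ± 0.19. HCP5 itself had no strong promoter region: its highest peak was 0 to 4 in KYSE150 libraries, where 0 stands for no peak of height 3 or more, and 8 to 23 in KYSE510 libraries. Peak height at HCP5 is no measure of its RNA, so it does not check the silencing.

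The lines differed at many strong promoter regions. Between control libraries, 309 members (13.2%) were higher in KYSE510 and 252 (10.7%) were lower (limma adjusted p under 0.05), while 13.8% of all regions were higher and 12.9% lower. Both shares are near those of all regions. The median size of the difference was 0.33 on the log2 scale over members, 0.40 over strong regions away from gene ends and 0.47 over all regions. A difference of more than 2-fold was found at 8.06, 10.7 and 18.5% of these sets. The minimum height in every library keeps out regions low in 1 line, so the sizes are a description. The split of calls turned with quantile normalisation, to 258 higher and 317 lower, and with log2 fold enrichment the calls dropped to 95 higher and 73 lower. The line cannot be told apart from copy number, sequencing or peak calling.

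CTTN (chr11:70399396-70400165), which encodes the actin regulator cortactin, stood highest in KYSE510. It had heights of 25, 13 and 18 in KYSE150 control, 24, 11 and 21 in KYSE150 silenced, 229, 188 and 180 in KYSE510 control, and 200, 170 and 210 in KYSE510 silenced libraries. The difference between controls was 3.16 ± 0.20 (log2, SE; limma adjusted p = 1.035e-19). MYC, the growth-promoting transcription factor, had 12, 14 and 11 in KYSE150 control, 10, 13 and 11 in KYSE150 silenced, 177, 108 and 122 in KYSE510 control, and 131, 124 and 149 in KYSE510 silenced libraries (3.13 ± 0.19, limma adjusted p = 5.608e-20). PPFIA1, a liprin gene, and DHCR7, the last enzyme of cholesterol synthesis, followed with 2.62 and 2.52. DHCR7 was among the regions near a 3′ end only. At CTTN and MYC the promoter table gave no strand, and the CTTN region lay 867 bp from the nearest gene end. Lowest in KYSE510 were 4 neighbours on chromosome 9: PLGRKT (chr9:5437324-5438125), a plasminogen receptor gene, RIC1, a Golgi trafficking gene, the ubiquitin ligase gene UHRF2, and BRD10. PLGRKT had 103, 99 and 118 in KYSE150 control and 29, 19 and 14 in KYSE510 control libraries (-2.73 ± 0.20, limma adjusted p = 1.828e-16), and the other 3 had differences of -2.59 to -2.27. JAK2, a member in the same stretch, had 24, 14 and 23 against 34, 18 and 27 (0.07 ± 0.25, limma adjusted p = 0.878).

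These large differences in height were smaller in fold enrichment, the deposited ratio of a peak's height to the background that MACS2 estimates around it. At MYC the fold enrichment was 5.96, 7.89 and 5.36 in KYSE150 control and 7.40, 6.24 and 7.38 in KYSE510 control libraries, which overlapped (0.09 on the log2 scale, limma adjusted p = 0.853). At CTTN it was 11.02, 6.67 and 9.60 against 13.9, 13.2 and 13.7 (0.56, limma adjusted p = 0.0705), and at DHCR7 and BRD10 the call was also lost (0.43 and -0.30, limma adjusted p = 0.0675 and 0.165). PPFIA1, PLGRKT, RIC1 and UHRF2 were called in fold enrichment too, with 0.59, -1.01, -0.71 and -0.76. The background that height and fold enrichment imply at MYC was 0.90 to 1.38 across KYSE150 and 15.7 to 23.04 across KYSE510 libraries. At PLGRKT it was 3.02 to 4.58 and 0.70 to 1.22. The background thus moved with the height at each of the 8 regions; it may include a peak's own fragments. Of the 561 members called in height, 157 (28.0%) were called in the same direction in fold enrichment, and these were 93.5% of the 168 called there.

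As medians over windows, and in the direction of calls, line differences of strong promoter regions mostly followed those of their surroundings. In 190 windows of 10 Mb with at least 5 of each, the members' median difference and that of regions under the height minimum correlated across windows, with Pearson's r of 0.853 and Spearman's rho of 0.836. The windows share the same libraries, so no p is given. With fold enrichment, an alternative chosen after seeing the data, the same r was 0.715, over medians that varied less (SD 0.16 across windows, against 0.41 with height). Of the members called higher in KYSE510, 93.2% lay in a window whose other regions had a median above 0, and of those called lower 86.9% lay in one below 0; over all members these shares were 50.8 and 49.2%. On chromosome 14, 60 of 93 members were called higher and 0 lower, with a median of 0.79, and regions there under the height minimum had 0.75. On chromosome 13 the members' median was -0.59 with 18 of 37 lower (other regions -0.51), and on chromosome 7 it was -0.32 with 42 of 154 lower (other regions -0.30). In fold enrichment the members' medians on chromosomes 14, 13 and 7 were smaller in size, 0.20, -0.16 and -0.13. From RASSF5 to TGFB2 on chromosome 1, 11 of 15 members were lower and 4 higher, with a median of -1.07. Calls among other regions were not counted by chromosome or in this stretch, so these counts do not set members apart from other regions. Around this stretch members and other regions did not always go together. Their medians were 0.93 and 1.08 from 200 to 210 Mb, -1.09 and -0.39 from 210 to 220 Mb, and -0.12 and 0.95 from 220 to 230 Mb. Subtracting the window's median lowered the SD of the members' differences from 0.56 to 0.42, so much of the spread between single members remained.

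**Figure D5:**
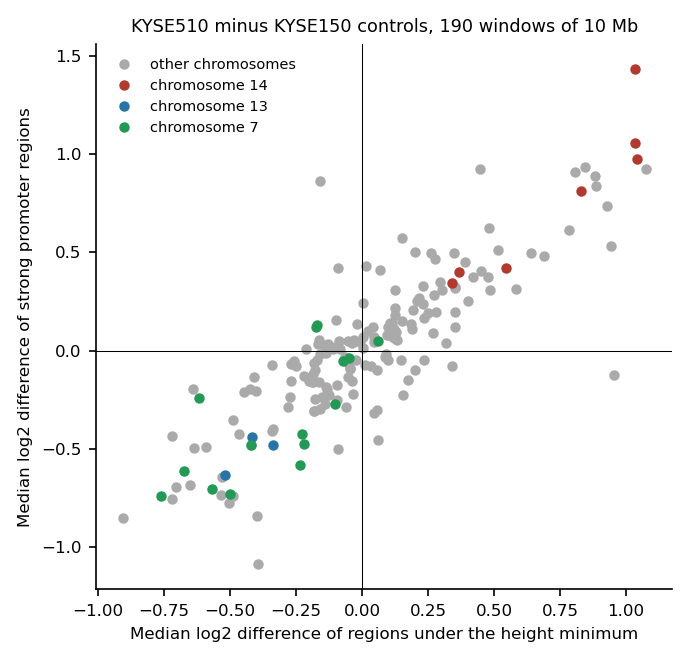
Median log2 difference in peak height between KYSE510 and KYSE150 control libraries in 190 windows of 10 Mb: strong promoter regions (vertical axis) against regions under the height minimum (horizontal axis), 1 point per window. Points lie along a rising line (Pearson's r 0.853), with windows of chromosome 14 at upper right and those of chromosomes 7 and 13 mostly at lower left.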

How the data were processed

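Each library had 1 peak table, deposited by the authors. Its columns include, per the file headers, pileup (in MACS2 the coverage signal at a peak's tallest position, here whole numbers), fold enrichment (in MACS2 a ratio to the local background), p-value, FDR and length in base pairs. Per the submitters' processing notes, the tools were Trimmomatic 0.36, Bowtie2 2.2.6, Picard 2.8.2, MACS2 2.1.1 and bedtools 2.25.0 with build GRCh38; their settings are not given in the sources used here. Per the labels' protocols, 10 000 to 50 000 cells were lysed and nuclei transposed with a TruePrep kit. No value was scaled between libraries in the tables, depth is unknown and no summit is given, so peak centres were used.

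Peaks of height 3 or more on chromosomes 1 to 22 were merged in Python 3.11.15 (numpy 2.4.6, pandas 2.3.3, scipy 1.17.1). Gene ends, strands and promoter sequences came from RefSeq (GRCh38.p14), with sequences for 2115 promoters near members. For 20785 regions with a peak in every library, log2 of the highest pileup was centred on each library's median. Group means of all 12 libraries were fitted in limma 3.58.1 (R 4.3.3, lmFit, eBayes with trend). A call needed an adjusted p (Benjamini-Hochberg) below 0.05. Simulated data for silencing in KYSE510 held 200 planted changes among 20785 regions. Of changes of 1 log2 unit 59.5% were called, with 10 false calls. Of changes of 2 log2 units 99.5% were called, with 13 false calls. Leaving out replicates, other scalings, other minimum heights and distances, and a replicate block were tried. The implied background was solved from (height + 1) / (background + 1), the form of MACS2's fold enrichment. The members, gene lists and motifs were chosen with earlier results of these data known. The rule for named regions takes the 12 tallest, the 3 smallest p-values in each direction of a silencing comparison, the 4 largest line differences in each direction, the regions nearest the minimum height, the tallest of each gene list, HCP5, UTP3 and MYC, the widest regions, those with the most genes, and those of least and most spread. Not all of these are described. JAK2, the stretch on chromosome 1, the regions in the closing observations and the sequences printed were picked outside that rule. Of the 12 tallest regions 1, and 1 marker gene with a member, are not reported here.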

Additional observations from a re-analysis of the deposited data

How the results depend on the processing

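Depth is unknown and limits any statement on small differences. No member was called in a silencing comparison or in their difference under any alternative run, and the members' named line differences kept their sign in all. Over all regions the silencing calls were few and unstable. In KYSE150 they numbered 1, and 0 with ranks of fold enrichment, log2 fold enrichment, height 10 or the line's own libraries, and 2 with quantile normalisation. In KYSE510 they numbered 14, and 2 with ranks, 5 with log2 fold enrichment, 4 with quantile normalisation, 3 with height 10 and 24 with the line's own libraries. Leaving out 1 library gave 0 to 2 in KYSE150 and 0 to 19 in KYSE510, where 0 came without HCP5-silenced 2, 1 without control 3 and 2 without HCP5-silenced 3; for the difference between lines it gave 0 to 1. Line differences over all regions numbered 5561, and 2701 with ranks, 2946 with log2 fold enrichment and 1540 at height 10 (where fewer regions are tested); without 1 library they numbered 4344 to 5656. Members called numbered 561, and 168 with ranks and 168 with log2 fold enrichment; without 1 library they numbered 435 to 571. The number of members was 1090 at height 15 and 2358 to 2668 without 1 library. CCAAT was present in 60.3% of promoters at height 15. Replicate numbers paired the libraries weakly at most. Same-numbered control and silenced libraries of a line deviated together with r of 0.02 to 0.16 over all regions and -0.03 to 0.08 over members. With a replicate block, calls were 2 in KYSE150, 29 in KYSE510, 1 for the difference between lines and 5940 between lines, with 0, 0, 0 and 597 members. The cause was not tested for these shifts.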

Other observations

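Among the 68 strong promoter regions near 3′ ends only, the tallest by mean height were at LOC124903573 (59.0), ADAMTSL4 (47.7), which encodes a matrix protein, and HYAL2 (42.4), a hyaluronidase gene. At HYAL2 the heights were 66, 32 and 56 in KYSE150 control and 55, 32 and 37 in KYSE510 control libraries. The median height of the 68 regions was 21.7, against 24.03 for those near a 5′ end. Starts of genes outside the protein-coding set were not looked for at these regions.

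Of 2342 members with enough neighbours, 65 differed between lines by over 1 log2 unit more or less than the median of other regions in their 10 Mb window. They were chosen after their values were seen. The largest excess was at CTTN (3.38), followed by PPFIA1 (2.84) and DHCR7 (2.74), in a window with a median of -0.22. USP14, a deubiquitinase of the proteasome, and TYMS, the thymidylate synthase gene, lay in 1 window on chromosome 18, with differences of 2.03 and 2.003 over a window median of 0.30. At TYMS the heights were 14, 16 and 12 in KYSE150 control and 96, 56 and 60 in KYSE510 control libraries. In the other direction, EIF3M, a translation initiation factor gene, had 27, 25 and 29 in KYSE150 control and 11, 12 and 11 in KYSE510 control libraries (-1.55), in a window with a median of 0.28. SUSD1, a region near a 3′ end only, had 49, 66 and 52 against 14, 24 and 29 (-1.67, window median 0.16).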
